A study of Mus musculus with 21 samples.

Results

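The 10 genes described here are Dusp4, Dusp5, Dusp6, Spry2, Spry4, Spred1, Spred2, Etv4, Etv5 and Phlda1, taken by symbol from a table of 24623 genes. All 10 were in the table, all reached 1 TPM, the unit of relative abundance used here, in each of the 21 libraries, and all passed the filter on low values that left 14337 genes to test. They are widely used as a readout of ERK signalling, since their transcripts rise when the pathway is active. They were taken by name, with no limit set on a measured value.

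RNA was sequenced from tumour cells of the mouse pancreatic cancer clones 6694c2 and 6419c5, grown under the skin of C57BL/6 mice, with no treatment, and sorted from the tumours 3 weeks after implantation. Each clone had a line labelled by the clone name alone, called WT here, and 2 lines labelled EPHA2-KO, with no further genotype in the labels. EPHA2, the targeted protein, is an Eph receptor with tyrosine kinase activity. Clone 6694c2 had 4 libraries of each line and 6419c5 had 3. Knockout lines carry the letters A and B in the table and the numbers 1 and 2 in the sample titles, so they are called KOA and KOB. Each clone is a single tumour cell clone and each knockout a single line, so a difference between a knockout line and WT cannot be told apart from other differences between lines. The labels name neither the editing method nor the markers used for sorting. Nothing in them shows that a line's libraries came from separate animals, so p-values measure only the spread between libraries.

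Growth factor receptors activate the kinase ERK through RAS, RAF and MEK. ERK then induces genes that restrain it: dual-specificity phosphatases (DUSPs) remove the activating phosphates from ERK or related kinases, and Sprouty and Spred proteins act upstream, between the receptor and RAF. ETV4 and ETV5 are ETS transcription factors of the PEA3 group, whose transcripts also depend on ERK, and PHLDA1 is an induced protein that has been linked to feedback on receptor signalling.

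Values were TPM, a relative abundance per transcript length, so levels can be compared between genes. Read numbers per library are unknown. Over the 21 libraries Dusp5 had the highest mean level of the 10 genes, 185 TPM, and was number 749 of the 14337 tested genes in order of level. Phlda1 followed with 166 TPM, Dusp4 with 149 TPM and Dusp6 with 142 TPM. Etv4 averaged 85.5 TPM, Spred2 66.7 TPM, Spry2 45.3 TPM, Spred1 33.5 TPM and Etv5 27.9 TPM. The lowest was Spry4, with 12.4 TPM and number 7881 in that order.

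RefSeq promoter windows (mm10, 250 bases before to 50 bases after a start site) matched 6 of the 10 genes, with 7 windows, of which Etv5 had 2. Dusp4, Spry4, Etv4 and Phlda1 had no entry. The 4 windows below are shown because they belong to the matched genes that fell in 6694c2 KOB, the line in which most of these genes moved. They lie at chr19:53528895-53529194 on the plus strand for Dusp5, chr10:99262981-99263280 on the plus strand for Dusp6, chr2:117120821-117121120 on the plus strand for Spred1, and chr14:105896770-105897069 on the minus strand for Spry2. Each is written 5′ to 3′ in the direction of transcription, and capitals mark matches to the motifs named after the sequences.
Dusp5: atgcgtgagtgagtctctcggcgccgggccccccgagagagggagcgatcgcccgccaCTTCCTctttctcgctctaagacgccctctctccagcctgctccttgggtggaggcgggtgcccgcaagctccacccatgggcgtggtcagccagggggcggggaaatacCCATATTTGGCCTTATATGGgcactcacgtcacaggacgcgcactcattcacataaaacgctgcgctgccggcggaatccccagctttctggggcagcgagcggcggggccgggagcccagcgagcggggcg
Dusp6: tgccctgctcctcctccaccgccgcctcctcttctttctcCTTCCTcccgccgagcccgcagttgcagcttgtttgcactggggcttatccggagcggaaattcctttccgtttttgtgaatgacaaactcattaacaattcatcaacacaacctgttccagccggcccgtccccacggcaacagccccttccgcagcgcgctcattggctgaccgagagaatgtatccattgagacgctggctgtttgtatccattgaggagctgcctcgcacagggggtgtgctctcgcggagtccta
Spred1: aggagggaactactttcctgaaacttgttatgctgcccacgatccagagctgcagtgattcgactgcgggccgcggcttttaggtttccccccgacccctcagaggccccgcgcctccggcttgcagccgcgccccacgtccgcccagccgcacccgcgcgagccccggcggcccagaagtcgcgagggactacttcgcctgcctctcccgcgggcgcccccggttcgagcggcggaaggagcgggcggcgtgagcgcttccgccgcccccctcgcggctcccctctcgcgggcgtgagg
Spry2: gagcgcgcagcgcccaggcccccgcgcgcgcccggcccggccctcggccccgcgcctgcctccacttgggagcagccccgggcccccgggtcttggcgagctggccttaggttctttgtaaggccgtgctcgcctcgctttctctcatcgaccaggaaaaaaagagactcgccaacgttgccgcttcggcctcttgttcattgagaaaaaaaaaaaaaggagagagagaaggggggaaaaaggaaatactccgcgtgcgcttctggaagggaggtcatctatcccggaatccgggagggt

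Both strands were searched for the PEA3 word AGGAAG, the ETS word CCGGAAG, the AP-1 site TGANTCA, the cyclic AMP response element TGACGTCA and the CArG box, which is the serum response factor site. AGGAAG and CCGGAAG share the letters GGAAG but cannot match at the same place. The Dusp5 window held AGGAAG on the reverse strand from position −192 and a pair of adjoining CArG boxes from −82 and −72, counted from the start site. The Dusp6 window held AGGAAG on the reverse strand from −210. The Spred1 and Spry2 windows held none of the 5 motifs. Over the 7 windows, 4 held AGGAAG (those of Dusp5, Dusp6 and Spred2 and 1 of Etv5), 1 held a CArG box, and 0 held each of the other motifs. Of all 32851 promoter windows of the same length, 35.4% held AGGAAG, 8.86% CCGGAAG, 7.81% TGANTCA, 1.79% TGACGTCA and 1.63% a CArG box. A match describes the letters of the window and shows no binding.

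Expression was compared by limma on log2(TPM + 1), with 1 mean for each of the 6 groups, and genes passing 0.05 after adjustment over all 14337 genes were called. The targeted transcript itself fell in both knockout lines of 6694c2, where Epha2 measured 239.9 to 251.9 TPM for WT, 92.2 to 129.7 for KOA and 88.0 to 113.4 for KOB. In 6419c5 it was not called in either line (163.6 to 190.4 TPM in WT, 143.8 to 155.6 in KOA and 169.7 to 220.8 in KOB). TPM of the whole gene cannot show whether the EPHA2 protein was lost, so the knockout lines of 6419c5 are knockouts by label, and every effect given for them is that of the lines so labelled. Libraries of a group resembled each other with Pearson's r of 0.961 to 0.991 across genes. Mir6236 took 145000 TPM in 6694c2 KOB library 4 and 91140 TPM in 6419c5 WT library 3, against 22660 to 54490 TPM in the other libraries. With size factors based on the median gene, the median change of all tested genes moved from 0.10 to −0.01 in 6419c5 KOB and from −0.11 to −0.02 for WT of 6694c2 against WT of 6419c5, on the log2 scale.

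More of the 10 genes were called in 6694c2 KOB than in the other knockout lines: 7 fell and 0 rose. Over all tested genes 19.4% were called lower, 29.2% higher and 48.6% in either direction in that line. The 7 were Dusp4, Dusp5, Dusp6, Spry2, Spry4, Spred1 and Etv4. The median change of the 10 genes was −0.57 on the log2 scale, against 0.07 for all tested genes. In the sister line 6694c2 KOA 1 gene rose (Etv4) and 1 fell (Spry2), with 15.2% of all genes called higher, 7.56% lower and 22.7% in either direction, and the median of 0.12 lay beside 0.08 for all genes.

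In 6419c5 the genes went in mixed directions. KOA had 0 genes higher and 2 lower (Spred1 and Etv5), where 19.1% of all genes were called higher and 12.7% lower. KOB had 3 higher (Dusp6, Spry4 and Phlda1) and 2 lower (Dusp4 and Etv5), where 28.5% were called higher and 14.7% lower. The medians of the 10 genes were 0.03 in KOA and 0.25 in KOB, beside 0.04 and 0.10 for all tested genes. Counting both directions, 2 of 10 genes in KOA and 5 of 10 in KOB stood beside 31.8% and 43.3% of all genes.

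**Figure D1:**
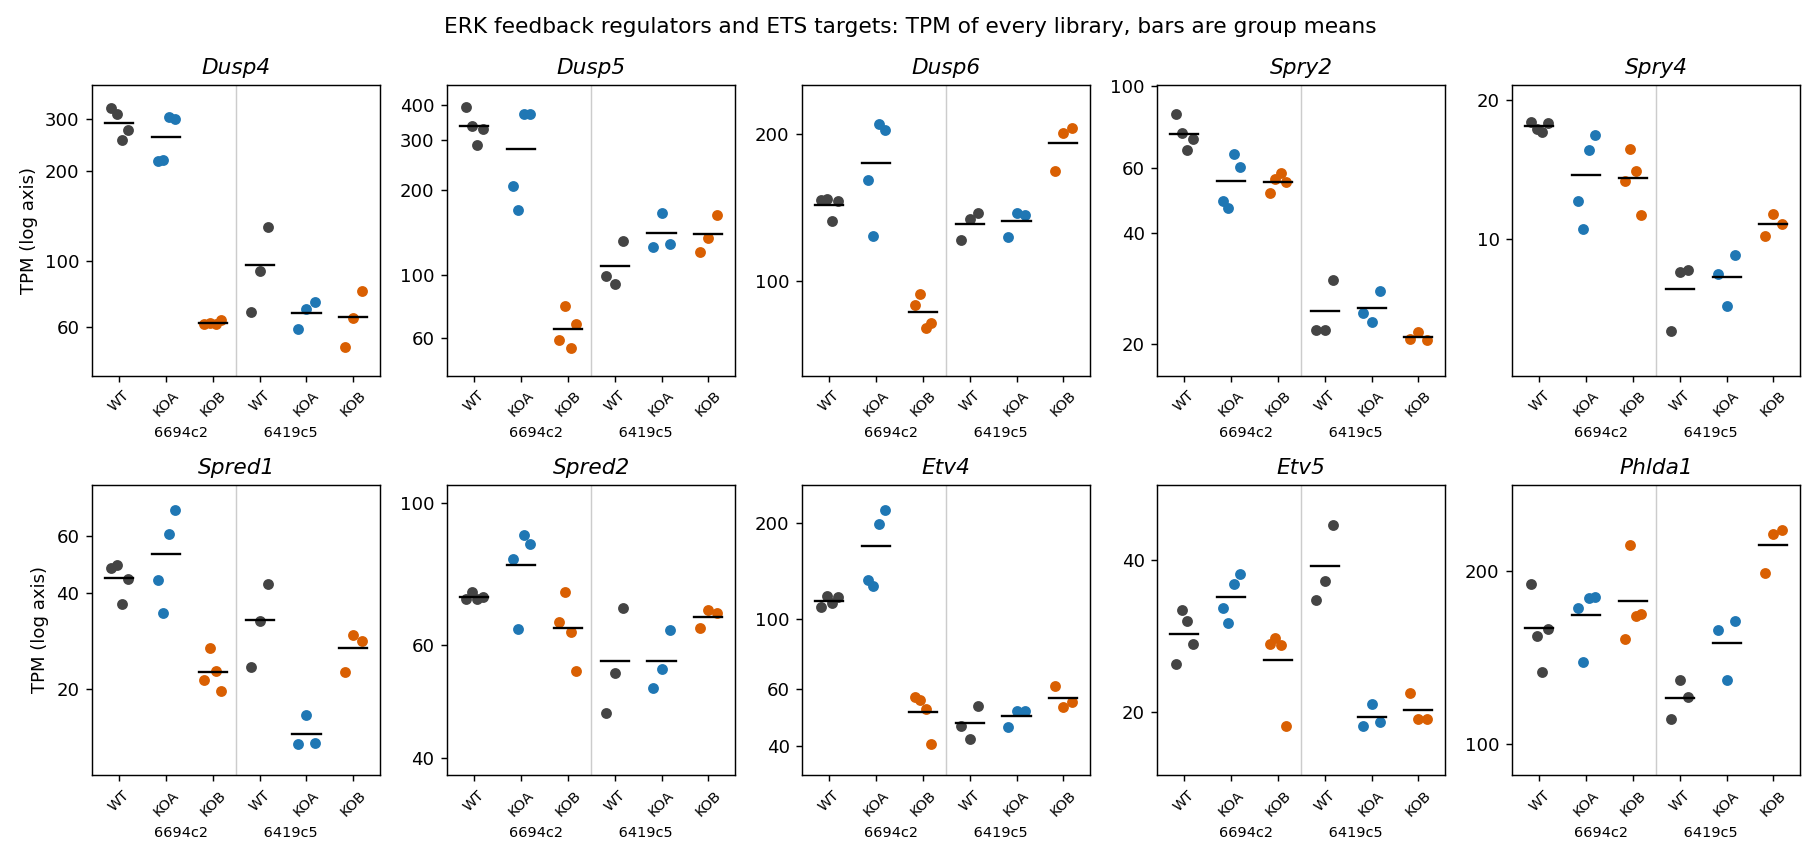
TPM of each of the 10 genes on a log axis, with 1 point per library and a bar at each group mean, for WT, KOA and KOB of 6694c2 (4 libraries each) and of 6419c5 (3 libraries each). Dusp4 in 6694c2 KOB lies between 61.2 and 63.4 TPM, far under the 254.0 to 324.8 TPM of its WT, and the KOA points of Dusp4 and Dusp5 form an upper and a lower pair.

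Among the phosphatases, Dusp4 and Dusp5 showed the largest decreases of the 10 genes in 6694c2 KOB. Dusp4 (chromosome 8, 34807610 to 34819894) encodes a nuclear phosphatase that acts on ERK and JNK. In 6694c2 it measured 324.8, 310.2, 254.0 and 274.3 TPM for WT, 217.2, 218.5, 303.3 and 300.6 for KOA and 61.3, 62.0, 61.2 and 63.4 for KOB. All 4 KOB libraries lay below every library of WT and KOA, and KOA had 2 libraries below the WT range and 2 inside it. The change was −2.21 ± 0.17 in KOB (log2, SE, adjusted p of 7.53e-09), a mean of 0.213 times that of WT, and −0.17 ± 0.17 in KOA (adjusted p of 0.493).

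In 6419c5 Dusp4 started from a lower level, with 67.4, 92.2 and 129.8 TPM in WT. It measured 58.9, 68.9 and 72.5 TPM in KOA and 51.4, 64.2 and 78.9 in KOB. The ranges of all 3 lines overlapped. The change of −0.54 ± 0.19 in KOB was called (adjusted p of 0.0318) and that of −0.48 ± 0.19 in KOA was not (adjusted p of 0.0666). The KOB call dropped out without WT library 2 (adjusted p of 0.062), WT library 3 (−0.30, adjusted p of 0.205), KOB library 1 (adjusted p of 0.151) or KOB library 2 (adjusted p of 0.0665), and KOA was called without WT library 1 (−0.71, adjusted p of 0.00763). The 6 group means of Dusp4 fell into an upper tier of 6694c2 WT and KOA and a lower tier of the other 4 groups, and no library of the lower tier reached the upper.

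Dusp5 (chromosome 19, 53529145 to 53541809) encodes a nuclear phosphatase specific for ERK. Its WT libraries of 6694c2 had 393.0, 336.4, 288.9 and 329.4 TPM, those of KOA 206.9, 170.3, 372.3 and 372.8, and those of KOB 58.9, 77.6, 55.0 and 66.8. As for Dusp4, KOB was separate from both other lines, KOA libraries 1 and 2 were under the WT range and KOA libraries 3 and 4 inside it. The change in KOB was −2.37 ± 0.21 (adjusted p of 5.41e-08), to 0.192 times the mean of WT, and in KOA −0.34 ± 0.21 (adjusted p of 0.269).

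In 6419c5 Dusp5 was at 99.2, 92.8 and 132.0 TPM in WT, 125.6, 166.1 and 129.3 in KOA, and 120.7, 135.1 and 163.7 in KOB. The estimate was above WT in both lines, 0.38 ± 0.24 in KOA (adjusted p of 0.262) and 0.37 ± 0.24 in KOB (adjusted p of 0.228), and neither was called. Dusp5 in 6694c2 KOB was the lowest of the 6 groups and did not overlap with the next, 6419c5 WT.

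Dusp6 (chromosome 10, 99263231 to 99267489) encodes a cytoplasmic phosphatase specific for ERK and is often read as a direct sign of ERK output. In 6694c2 it measured 146.3, 147.0, 132.6 and 146.0 TPM for WT, 160.9, 123.6, 210.2 and 204.2 for KOA and 89.2, 94.0, 79.9 and 82.1 for KOB. The KOB libraries were again below all others of the clone, while 3 KOA libraries were above the WT range and 1 below it. The change was −0.72 ± 0.12 in KOB (adjusted p of 8.41e-05) and 0.26 ± 0.12 in KOA (adjusted p of 0.146), and KOA was called without its library 2 (0.41, adjusted p of 0.0038).

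In 6419c5 Dusp6 rose in KOB. Its libraries had 121.1, 133.6 and 137.4 TPM in WT, 123.1, 137.4 and 136.4 in KOA, and 168.2, 200.7 and 206.1 in KOB. KOB was above every WT and KOA library, with a change of 0.55 ± 0.14 (adjusted p of 0.00481). The mean of KOA was 1.01 times that of WT. Dusp6 had its lowest group mean in 6694c2 KOB, 86.3 ± 6.49 TPM (SD, n = 4), and its highest in 6419c5 KOB, 191.7 ± 20.5 TPM (SD, n = 3).

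The estimates for the Sprouty genes in 6694c2 KOB were smaller. Spry2 (chromosome 14, 105891947 to 105896819) encodes an inhibitor of receptor tyrosine kinase signalling to RAS and RAF. In 6694c2 its TPM were 84.1, 74.8, 67.3 and 71.8 in WT, 49.0, 46.9, 65.4 and 60.3 in KOA, and 51.4, 56.0, 58.1 and 55.1 in KOB. All 8 knockout libraries lay below the lowest WT library. Spry2 fell in both lines, with −0.43 ± 0.11 in KOA (adjusted p of 0.00911) and −0.42 ± 0.11 in KOB (adjusted p of 0.00374). It was the only gene of the 10 called in the same direction in both knockout lines of 6694c2, and Spry4 joined it with size factors based on the median gene.

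In 6419c5 Spry2 was at 21.9, 21.8 and 29.8 TPM in WT, 24.3, 22.9 and 27.9 in KOA, and 20.7, 21.6 and 20.5 in KOB. The KOB libraries lay just under the lowest WT library, and their change of −0.20 ± 0.13 was not called (adjusted p of 0.21). With size factors based on the median gene it was called (−0.33, adjusted p of 0.0214).

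Spry4 (chromosome 18, 38586247 to 38601347), a second Sprouty gene, had 17.9, 17.3, 17.1 and 17.8 TPM in WT of 6694c2, 12.1, 10.5, 15.6 and 16.8 in KOA, and 13.3, 15.7, 14.01 and 11.3 in KOB. Both knockout lines were below the narrow WT range in 4 of 4 libraries. The change of −0.35 ± 0.13 in KOB was called (adjusted p of 0.0301) and that of −0.35 ± 0.13 in KOA was not (adjusted p of 0.0585). The KOB call dropped out without WT library 1 (adjusted p of 0.0627), 2 (0.0519) or 4 (0.0596) or KOB library 1 (0.0589) or 4 (−0.27, 0.1). KOA was called without its own library 3 (0.0442) or 4 (0.0239), and with size factors based on the median gene (−0.44, 0.00241). KOA was also called without 6694c2 KOB library 4 (0.0473) or 6419c5 WT library 1 (0.044). Those libraries are outside that comparison, so the estimate stayed at −0.35 and only the spread shared by all groups changed.

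In 6419c5 Spry4 rose in KOB. It measured 6.34, 8.50 and 8.59 TPM for WT, 8.40, 7.18 and 9.23 for KOA and 10.2, 11.3 and 10.8 for KOB, so that KOB was above all WT and KOA libraries. The call of this rise (0.43 ± 0.15, adjusted p of 0.0277) dropped out without WT library 1 (0.30, adjusted p of 0.134), KOB library 2 (adjusted p of 0.0827) or KOB library 3 (adjusted p of 0.0622).

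Spred1 (chromosome 2, 117121071 to 117182279) encodes an inhibitor that brings neurofibromin to the membrane to turn off RAS. In 6694c2 it had 48.0, 48.7, 36.8 and 44.1 TPM in WT, 43.8, 34.5, 61.1 and 72.6 in KOA, and 21.3, 26.9, 22.7 and 19.7 in KOB. KOB was below all other libraries of the clone, and KOA straddled WT with 2 libraries above its range, 1 inside and 1 below. The change was −0.94 ± 0.20 in KOB (adjusted p of 0.000613) and 0.20 ± 0.20 in KOA (adjusted p of 0.498).

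In 6419c5 it was KOA in which Spred1 fell. Its TPM were 23.5, 32.7 and 42.6 in WT, 13.4, 16.6 and 13.5 in KOA, and 22.6, 29.6 and 28.3 in KOB. All 3 KOA libraries were below every WT and KOB library, with a change of −1.10 ± 0.23 (adjusted p of 0.00113). The change in KOB was −0.25 ± 0.23 (adjusted p of 0.384), with 2 of 3 libraries inside the WT range.

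Spred2 (chromosome 11, 19924442 to 20024026), the paralogue of Spred1, was not called against WT in any knockout line. In 6694c2 it measured 70.7, 72.6, 70.8 and 71.4 TPM for WT, 81.9, 63.6, 89.2 and 86.3 for KOA and 65.2, 72.6, 62.9 and 54.7 for KOB. Its values in 6419c5 were 46.9, 54.3 and 68.7 TPM in WT, 51.4, 55.0 and 63.3 in KOA, and 63.9, 68.0 and 67.4 in KOB. In 6694c2 3 KOA libraries were above the WT range and 3 KOB libraries below it, and in 6419c5 all 6 knockout libraries were inside it. The largest estimate was 0.24 ± 0.13 in 6419c5 KOB (adjusted p of 0.145), which was called without 6419c5 WT library 3 (0.39, adjusted p of 0.0239). In 6694c2 KOB the change of −0.17 ± 0.11 (adjusted p of 0.246) was called with size factors based on the median gene (−0.24, adjusted p of 0.0193).

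Of the PEA3 group factors, Etv4 (chromosome 11, 101769747 to 101785310) rose in 1 knockout line of 6694c2 and fell in the other. It had 109.0, 117.6, 112.1 and 116.8 TPM in WT, 132.3, 126.4, 197.8 and 219.8 in KOA, and 56.9, 55.5, 51.9 and 40.3 in KOB. All KOA libraries lay above and all KOB libraries below the WT range. The rise in KOA was 0.53 ± 0.15 (adjusted p of 0.0152) and the change in KOB −1.15 ± 0.15 (adjusted p of 3.67e-06). The KOA call dropped out without KOA library 3 (0.44, adjusted p of 0.0572) or KOA library 4 (0.39, adjusted p of 0.0625).

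In 6419c5 Etv4 was at 45.9, 42.0 and 53.3 TPM in WT, 45.6, 51.4 and 51.2 in KOA, and 61.7, 52.8 and 54.8 in KOB. The change in KOB was 0.26 ± 0.17 (adjusted p of 0.231), with 2 of 3 libraries above the WT range, and all KOA libraries were inside that range. The level of Etv4 in 6694c2 KOB, 51.2 ± 7.53 TPM (SD, n = 4), overlapped with those of all 3 lines of 6419c5.

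Etv5 (chromosome 16, 22381313 to 22439570) had its calls against WT in 6419c5. There it measured 33.4, 36.2 and 46.9 TPM for WT, 18.8, 20.8 and 19.2 for KOA and 21.8, 19.4 and 19.4 for KOB. All 6 knockout libraries lay below the lowest WT library, and Etv5 fell in both lines. The change was −0.94 ± 0.14 for KOA (adjusted p of 6.3e-05) and −0.90 ± 0.14 for KOB (adjusted p of 6.91e-05). In this fit it was the only gene of the 10 called in the same direction in both lines of 6419c5, and Dusp4 joined it with size factors based on the median gene (−0.53 in KOA, adjusted p of 0.0266).

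In 6694c2 Etv5 had 24.9, 31.8, 30.3 and 27.2 TPM in WT, 32.1, 30.0, 35.7 and 37.5 in KOA, and 27.3, 28.0, 27.2 and 18.8 in KOB. In KOA 3 libraries were above the WT range and in KOB 1 was below it. The changes of 0.24 ± 0.12 in KOA (adjusted p of 0.181) and −0.18 ± 0.12 in KOB (adjusted p of 0.25) were not called. The KOB change was called with size factors based on the median gene (−0.26, adjusted p of 0.0333).

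Phlda1 (chromosome 10, 111506286 to 111508649) was not called in either knockout line of 6694c2. Its libraries there had 190.0, 154.1, 133.7 and 158.4 TPM in WT, 172.7, 138.7, 179.3 and 180.5 in KOA, and 152.6, 221.7, 166.7 and 168.4 in KOB. The ranges of all 3 lines overlapped, and the change in KOB was 0.15 ± 0.12 (adjusted p of 0.327). In 6419c5 it measured 110.5, 129.1 and 120.7 TPM for WT, 157.6, 129.4 and 163.5 for KOA and 198.5, 231.5 and 235.2 for KOB. All 6 knockout libraries were above the highest WT library, and KOB was above all of KOA. Phlda1 rose by 0.88 ± 0.14 in KOB (adjusted p of 8.56e-05), and the change of 0.32 ± 0.14 in KOA was not called (adjusted p of 0.103) except without KOA library 2 (0.42, adjusted p of 0.0499).

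**Figure D2:**
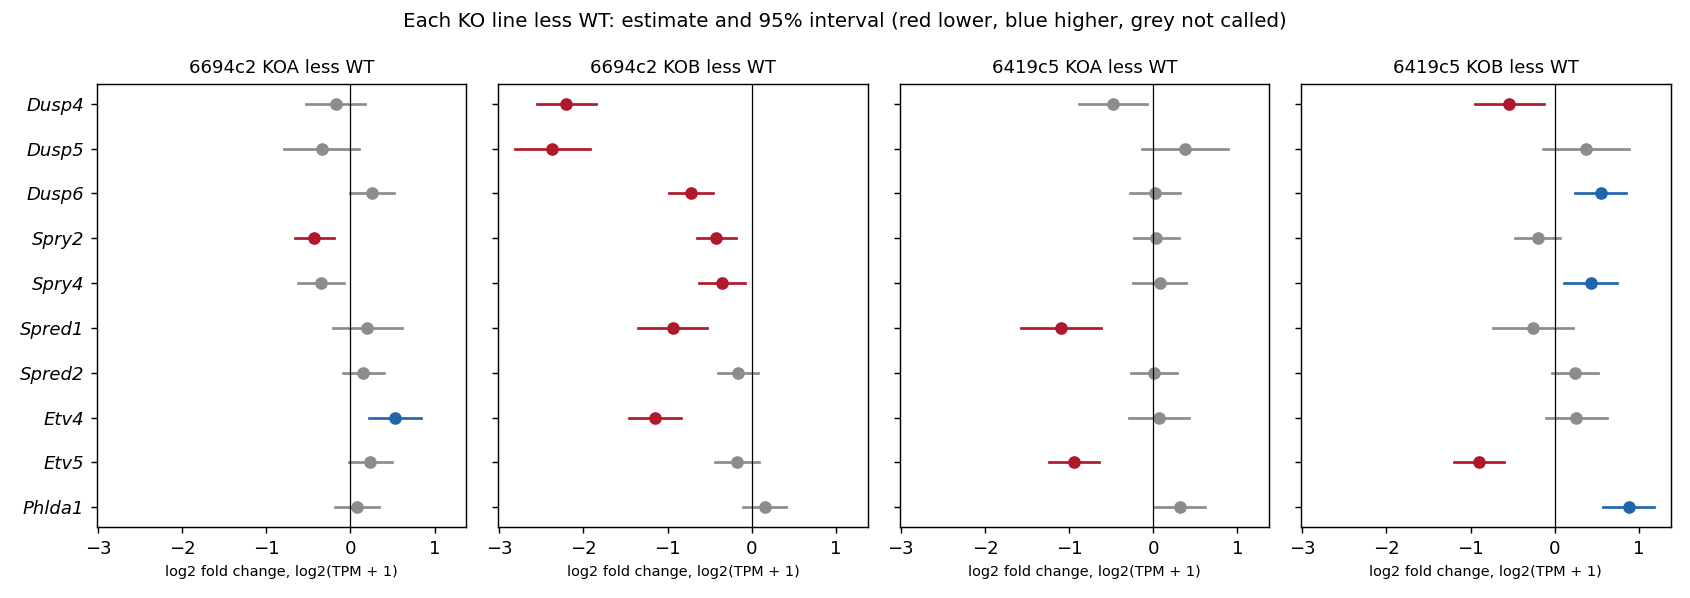
Log2 fold change of each gene in each knockout line against WT of its clone, as points with bars for the 95% confidence interval from limma, coloured red where called lower, blue where called higher and grey where not called. The 6694c2 KOB panel has 7 red points and 0 blue, and the 6419c5 KOB panel has 2 red and 3 blue.

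The knockout lines of a clone were then compared with each other. In 6694c2, 7 of 10 genes were lower in KOB than in KOA and 0 were higher, where 22.9% of all genes were lower, 23.6% higher and 46.5% called in either direction. Dusp4 and Dusp5 differed by −2.03 each (SE 0.17 and 0.21, adjusted p of 2.74e-08 and 4.74e-07), Etv4 by −1.68 ± 0.15 (6.1e-08), Spred1 by −1.14 ± 0.20 (0.000111) and Dusp6 by −0.98 ± 0.12 (3.77e-06). Etv5 and Spred2 differed by −0.42 ± 0.12 (0.0099) and −0.32 ± 0.11 (0.0276). The call of Spred2 dropped out without KOA library 1, 3 or 4 or KOB library 3 or 4 (adjusted p of 0.0548 to 0.0938). The means of Spry2 were 55.4 ± 8.90 TPM in KOA and 55.1 ± 2.78 in KOB (SD, n = 4), and those of Spry4 13.8 ± 2.93 and 13.6 ± 1.82 TPM.

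In 6419c5, 3 genes were higher in KOB than in KOA and 0 were lower, where 12.7% of all genes were higher, 4.76% lower and 17.4% called in either direction. They were Spred1 (0.84 ± 0.23, adjusted p of 0.0159), Phlda1 (0.56 ± 0.14, 0.011) and Dusp6 (0.53 ± 0.14, 0.0157). Leaving out 1 library ended the call of Spred1 for KOA library 1 or 3 or KOB library 2 or 3 (adjusted p of 0.052 to 0.0662). It ended that of Dusp6 for KOA library 1 or KOB library 2 or 3 (0.0623 to 0.0666) and that of Phlda1 for KOA library 2 (0.0553). Each of these comparisons shares its KOA and KOB libraries with the comparisons against WT.

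The libraries of 6694c2 KOA were not alike in these genes. Library 2 had 7 of the 10 genes below the WT range and 1 above it (Etv4), and library 1 had 4 below and 4 above. Libraries 3 and 4 each had 2 below, Spry2 and Spry4, and 5 above, Dusp6, Spred1, Spred2, Etv4 and Etv5. The mean log2(TPM + 1) of the 10 genes was 6.36 and 6.15 in libraries 1 and 2 and 6.74 and 6.78 in libraries 3 and 4, beside 6.38 to 6.57 in WT. The KOB libraries were uniform, with 7 to 9 genes below the WT range and mean values of 5.52 to 5.82. Each 6694c2 KOB library had Dusp4, Dusp5, Dusp6, Spry2, Spry4, Spred1 and Etv4 below that range. An unchanged gene can also lie outside the range of 4 WT libraries. The share of all tested genes outside it was not counted, so no background stands beside these counts.

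Across the 6419c5 libraries, KOA had 2 or 3 genes below the WT range and 1 to 3 above it, and KOB had 2 to 4 below and 4 or 5 above. An unchanged gene can also lie outside the range of 3 WT libraries. The share of all tested genes outside that range was not counted here either, so these counts have no background beside them. Spred1 and Etv5 were below it in 3 of 3 KOA libraries, Spry2 and Etv5 in 3 of 3 KOB libraries. Phlda1 was above it in 3 of 3 KOA libraries, and Dusp6, Spry4 and Phlda1 in 3 of 3 KOB libraries. WT library 3, the library of high Mir6236, had the highest WT value of Dusp4, Dusp5, Dusp6, Spry2, Spry4, Spred1, Spred2, Etv4 and Etv5.

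**Figure D3:**
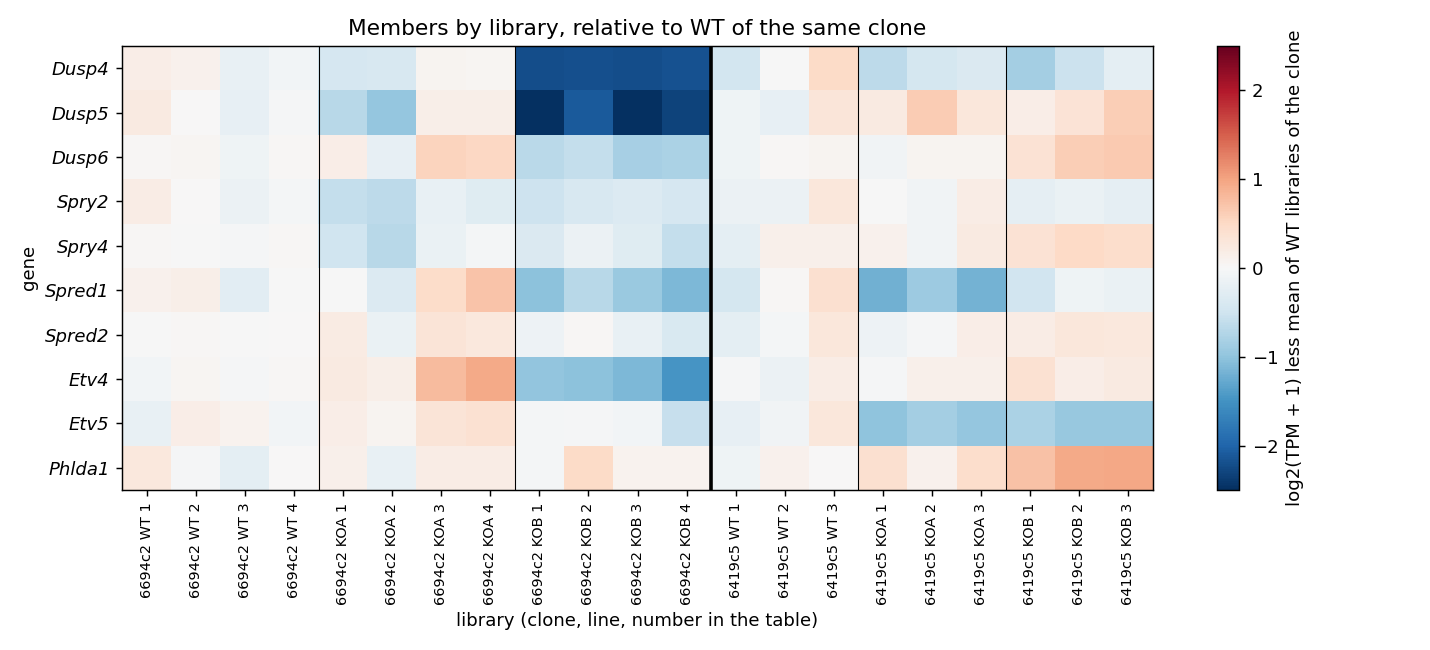
Difference of log2(TPM + 1) of each gene in each library from the mean of the WT libraries of the same clone, with libraries in columns and genes in rows, blue for lower and red for higher. The 4 columns of 6694c2 KOB are blue in the rows of Dusp4 and Dusp5, and the 4 KOA columns divide into libraries 1 and 2 and libraries 3 and 4 in most rows.

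Marker genes of other cell types varied among the same libraries. The summed TPM of 10 fibroblast markers was 248.2 to 377.5 in WT of 6694c2, 673.5, 217.3, 690.4 and 866.8 in KOA libraries 1 to 4, and 74.5 to 129.7 in KOB, where 8 of 10 markers were called lower. The sum of 10 macrophage markers was 183.0 to 1369 in WT, 175.4, 364.2, 827.2 and 974.6 in KOA, and 66.2 to 352.0 in KOB, where 1 was called lower. The fibroblast sum was below its WT range in all KOB libraries. KOA library 2 had the lowest of its line in both that sum and the mean of the 10 genes. KOA library 1 went the other way, with a sum of 673.5 TPM, above WT, and a mean log2(TPM + 1) of 6.36, under the 6.38 to 6.57 of WT. The sum of 6 endothelial markers was 2.28 to 6.31 TPM in WT, 7.42, 5.51, 18.9 and 19.2 in KOA libraries 1 to 4 and 1.51 to 2.63 in KOB. Most of the KOA sum was 1 gene: Cdh5 averaged 9.01 TPM there, Pecam1 2.07 and each other marker at most 0.619. Cdh5 was the 1 marker of the 4 tested that was called in KOA against WT. In KOB 3 of the 4 tested markers were lower than in KOA, where 22.9% of all genes were lower. Over 6 T cell markers, WT libraries summed to 3.09 to 3.30 TPM. The KOA libraries had sums of 4.46 to 9.20 TPM and the KOB libraries 4.64 to 6.69. Most of each line's mean sum was Cd3d, the 1 T cell marker tested, which averaged 2.48 (WT), 4.70 (KOA) and 3.84 TPM (KOB). Against WT, Cd3d was called higher for KOA (0.67, adjusted p of 0.0126) and KOB (0.46, adjusted p of 0.0427). Each other T cell marker averaged at most 0.552 TPM in any line of 6694c2. Ductal epithelial markers, those of the labelled cell type, summed to 6471 to 8938 TPM over all 6694c2 libraries. Of these 8 markers, 0 were called in KOA, and 2 were higher and 3 lower in KOB. The background against WT was 29.2% of genes higher and 19.4% lower for KOB, and 15.2% and 7.56% for KOA. In KOB the 8 of 10 fibroblast markers lower stood out from that background, and the counts of macrophage and ductal markers did not. The part of these markers in the results for 6694c2 was not tested.

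In 6419c5 the fibroblast sum was 1248 to 2063 TPM in WT, 721.3 to 897.6 in KOA (6 of 10 called lower) and 1774 to 2638 in KOB (4 called higher and 3 lower). The macrophage sum was 961.4 to 2551 TPM in WT and 299.7, 4392 and 208.4 in KOA libraries 1 to 3 (0 called). In KOB it was 230.3 to 356.6 TPM (5 called lower). KOA libraries 1 and 3 lay below the WT range of that sum and library 2 above it. The ductal sum was 5754 to 7648 TPM in WT, 13920 to 15430 in KOA and 12350 to 16400 in KOB. In each knockout line 5 of 8 ductal markers were called higher and 1 lower. The background against WT was 19.1% of genes higher and 12.7% lower for KOA, and 28.5% and 14.7% for KOB. Fibroblast markers lower in KOA, macrophage markers lower in KOB and ductal markers higher in both lines exceeded these shares. The fibroblast counts in KOB lay nearer to them. Endothelial markers summed to 7.88 to 12.98 TPM for WT, 6.43 to 10.2 for KOA and 10.3 to 18.7 for KOB, and T cell markers to 4.16 to 5.02, 3.89 to 10.9 and 2.88 to 6.11 TPM. The part of these markers in the results for 6419c5 was not tested. In no library was a fibroblast, macrophage, endothelial or ductal marker listed at 0. In bulk RNA fewer cells of a type and less RNA per cell cannot be told apart.

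The WT lines of the clones differed in most of these genes. Of the 10, 7 were higher in 6694c2 and 1 was lower, where 21.5% of all genes were higher, 32% lower and 53.5% called in either direction. The median difference was 0.77, against −0.11 for all tested genes. Dusp5 (1.64 ± 0.23, adjusted p of 9.77e-06), Dusp4 (1.63 ± 0.18, 6.99e-07), Spry2 (1.58 ± 0.12, 7.26e-09), Etv4 (1.26 ± 0.16, 3.07e-06) and Spry4 (1.08 ± 0.14, 4.04e-06) differed most. Their WT libraries did not overlap between the clones, and neither did those of Spred2, Phlda1 and Etv5. The share of all tested genes without such overlap was not counted. Etv5 was the gene lower in 6694c2 (−0.42 ± 0.13, adjusted p of 0.0125), and Dusp6 (0.13, adjusted p of 0.43) and Spred1 (0.45, adjusted p of 0.0809) were not called. In the same comparison 8 of 10 fibroblast, 2 of 10 macrophage and 2 of 4 tested endothelial markers were lower in 6694c2, and 0 were higher. Of 8 ductal markers 3 were higher and 2 lower. The part of these markers in the difference between the WT lines was not tested.

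The smaller differences between the WT lines lost or gained a call when 1 library was left out. The call of Phlda1 (0.39 ± 0.13, adjusted p of 0.0185) dropped out without 6694c2 WT library 1 (adjusted p of 0.0678) or 6419c5 WT library 1 (0.0746), and that of Spred2 (0.35 ± 0.12, 0.0243) without 6419c5 WT library 1 (0.22, 0.159) or 2 (0.0724). The call of Etv5 dropped out without 6419c5 WT library 3 (−0.28, 0.1), and Spred1 was called without that library (0.65, 0.0233). Spred1 was also called without 6694c2 KOA library 2 (0.0456). That library is outside the comparison, so the estimate stayed at 0.45 and only the spread shared by all groups changed.

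With KOA and KOB averaged, the knockout effect in 6694c2 had 0 genes higher and 4 lower. Of all genes 23.9% were higher, 13.5% lower and 37.4% called in either direction. That in 6419c5 had 1 higher and 3 lower, beside 26.5% higher, 15% lower and 41.4% in either direction. In 6694c2 Dusp5 (−1.35 ± 0.18, adjusted p of 1.46e-05), Dusp4 (−1.19 ± 0.14, 4.57e-06), Spry2 (−0.43 ± 0.10, 0.00177) and Spry4 (−0.35 ± 0.11, 0.0187) fell. In 6419c5 Etv5 (−0.92 ± 0.12, 1.14e-05), Spred1 (−0.67 ± 0.20, 0.0101) and Dusp4 (−0.51 ± 0.17, 0.0206) fell, and Phlda1 rose (0.60 ± 0.12, 0.000779). With the line as a random effect, so that the spread between KOA and KOB enters the error, 0 of these were called (adjusted p of 0.0555 to 0.741). Size factors based on the median gene raised the 4 lower genes of 6694c2 to 7, and split all genes into 2716 higher and 3020 lower there and 3174 and 3120 in 6419c5.

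Leaving out 1 library changed some of these calls. Spry4 in 6694c2 dropped out without WT library 1 (−0.34, adjusted p of 0.0512). Dusp4 in 6419c5 dropped out without WT library 2 (adjusted p of 0.0509) or 3 (−0.27, 0.209), and Spred1 there without WT library 3 (−0.47, 0.0934). In 6694c2, Dusp6 and Etv4 were called lower without KOA library 3 (0.0342 each) or 4 (0.0458 and 0.0134), and Spred1 without KOA library 4 (0.0311). In 6419c5, Dusp6 was called higher without KOB library 1 (0.0475). It was also called without 6694c2 KOA library 2 (0.0141). That library is outside the comparison, so the estimate stayed at 0.28 and only the spread shared by all groups changed.

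The averaged effects differed between the clones in 6 of 10 genes, 5 lower and 1 higher in 6694c2, where 15.6% of all genes were lower, 13% higher and 28.6% called in either direction. Dusp5 differed most, by −1.73 ± 0.28 (adjusted p of 0.000172), with a fall in 6694c2 and no call in 6419c5. Etv5 differed by 0.95 ± 0.16 (0.000298), Dusp4 by −0.68 ± 0.22 (0.0272), Spry4 by −0.61 ± 0.17 (0.0129), Dusp6 by −0.51 ± 0.16 (0.024) and Phlda1 by −0.48 ± 0.16 (0.0344). Etv4 (−0.48, 0.074), Spry2 (−0.34, 0.0868), Spred1 (0.31, 0.41) and Spred2 (−0.13, 0.549) were not called. With the line as a random effect 0 of the 6 differences were called (adjusted p of 0.438 to 0.967).

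Several of the differences between clones lost or gained a call when 1 library was left out. Dusp4 dropped out without WT library 1 (adjusted p of 0.0605) or 2 (0.0536) of 6694c2 or WT library 1 (−0.45, 0.114) or 2 (0.0545) of 6419c5. Without WT library 1 of 6419c5, Dusp6 (0.0679) and Spry4 (0.0524) dropped out too. Phlda1 dropped out without WT library 1 or 4 or KOB library 1 of 6694c2, or any library of 6419c5 other than its WT library 2, its KOA library 2 or its KOB library 1 (0.0502 to 0.0926). Spry2 was called without 6694c2 KOA library 3 (0.0431) or 6419c5 WT library 3 (0.0154), and Etv4 without 6694c2 KOA library 3 (0.0478) or 4 (0.0226).

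Levels of the genes were compared among themselves within each clone as a description. Libraries of a line share its cells, so lines that differ set much of any correlation. Over the 12 libraries of 6694c2, Pearson's r of log2(TPM + 1) was 0.983 between Dusp4 and Dusp5, 0.977 between Dusp6 and Spred1, 0.971 between Dusp6 and Etv4, and 0.864 between Spry2 and Spry4. Over the 9 libraries of 6419c5 it was −0.035 between Dusp4 and Dusp5. The highest values in that clone were 0.908 between Spry4 and Phlda1 and 0.889 between Dusp6 and Phlda1. The median of the 45 pairs was 0.571 in 6694c2 and 0.277 in 6419c5.

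The genes most like the 10 were sought by correlation with the mean of their standardized levels, taking the smaller of the 2 values of r from the 12 and 9 libraries. Phlpp1, which encodes a phosphatase of the kinase AKT, had 0.972 in 6694c2 and 0.946 in 6419c5. Smad7, an inhibitor of TGF-beta signalling, had 0.949 and 0.915. Zfp9, Brd2, Dtx2, Inppl1, Kifc5b and Lonrf1 followed, with smaller values of 0.875 to 0.902. Among the 10 genes themselves Spred2 was closest to the mean (0.875 and 0.965), and Etv5 (0.728 and 0.051) and Phlda1 (0.178 and 0.536) were farthest. Each of the 10 is part of that mean, so their values of r cannot be set beside those of the other genes. Phlpp1 measured 26.1 ± 2.17 TPM for WT, 27.6 ± 4.86 for KOA and 16.1 ± 2.38 for KOB of 6694c2 (SD, n = 4), and 20.2 ± 4.50, 17.6 ± 1.44 and 25.9 ± 2.13 TPM in 6419c5 (SD, n = 3).

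Other genes of the pathway were taken from lists by function. Of 12 other genes known to be induced by ERK, 8 were called lower and 0 higher in 6694c2 KOB, with a median of −1.16 beside 0.07 for all tested genes. In 6694c2 KOA 3 were lower and 0 higher, in 6419c5 KOA 3 lower and 0 higher, and in 6419c5 KOB 2 lower and 3 higher. Of all tested genes, 7.56% were lower in 6694c2 KOA, 19.4% in 6694c2 KOB, 12.7% in 6419c5 KOA and 14.7% in 6419c5 KOB, and 15.2%, 29.2%, 19.1% and 28.5% were higher. The 2 lower and 3 higher of 12 in 6419c5 KOB lay near those shares. Areg and Ereg, which encode ligands of the EGF receptor, fell in all 4 knockout lines. Areg measured 121.7 to 139.1 TPM for WT, 45.1 to 82.3 for KOA and 14.3 to 19.4 for KOB of 6694c2, and 59.9 to 96.0, 35.3 to 57.9 and 22.4 to 39.9 TPM in 6419c5. Its changes were −1.02 ± 0.21 and −2.82 ± 0.21 in 6694c2 and −0.70 ± 0.24 and −1.30 ± 0.24 in 6419c5 (KOA and KOB, adjusted p of 0.0323 at most). Ereg changed by −1.03, −1.62, −1.50 and −1.35 in the same order.

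Hbegf, the gene of another EGF receptor ligand, fell in both lines of 6694c2 and rose in 6419c5 KOB. It measured 311.0 to 345.1 TPM for WT, 171.9 to 310.1 for KOA and 111.0 to 141.8 for KOB of 6694c2. The changes were −0.44 ± 0.15 for KOA (adjusted p of 0.0441) and −1.37 ± 0.15 for KOB (7.36e-07). In 6419c5 KOB it rose by 0.50 ± 0.18 (0.0286), and KOA was not called (−0.11, 0.681).

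Of 7 other MAP kinase phosphatase genes, 5 were lower and 1 higher in 6694c2 KOB (median −0.85), 0 were called in KOA, and 2 were lower in each line of 6419c5, with 1 higher in KOA and 2 in KOB. Lower calls made up 7.56% of all tested genes in 6694c2 KOA, 19.4% in 6694c2 KOB, 12.7% in 6419c5 KOA and 14.7% in 6419c5 KOB. Higher calls made up 15.2%, 29.2%, 19.1% and 28.5% in the same order, so the higher counts in 6419c5 were near the background. The 2 of 7 lower in each line of 6419c5 lay above the shares of lower calls, in a list of few genes. Dusp9, another phosphatase of ERK, measured 17.0 ± 0.938 TPM for WT, 19.6 ± 3.01 for KOA and 3.85 ± 0.266 for KOB of 6694c2 (SD, n = 4), and 19.7 ± 7.40, 5.68 ± 0.884 and 6.25 ± 0.910 TPM in 6419c5 (SD, n = 3). It fell in 6694c2 KOB (−1.89 ± 0.16, adjusted p of 2.01e-08) and in KOA and KOB of 6419c5 (−1.58 ± 0.18 and −1.46 ± 0.18, 3.04e-06 and 4.69e-06). Dusp16, which acts on JNK and p38, fell in 6694c2 KOB (−0.23), 6419c5 KOA (−0.48) and 6419c5 KOB (−0.82), and Dusp8 rose in the same 3 lines (0.61, 0.56 and 0.63).

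Among the remaining Sprouty and Spred genes, Spred3 fell in 6694c2 KOB (−1.40 ± 0.15, adjusted p of 4.4e-07), 6419c5 KOA (−0.72 ± 0.17, 0.00375) and 6419c5 KOB (−0.55 ± 0.17, 0.016). Spry1 rose in 6419c5 KOA (0.73 ± 0.15, 0.00125) and KOB (0.99 ± 0.15, 5.18e-05) and was not called in 6694c2. Spry3 was under the filter, with means of 0.00942 to 0.980 TPM. Of 14 other ETS factors, 3 were higher and 0 lower in 6694c2 KOA, 4 and 4 in 6694c2 KOB, 3 and 4 in 6419c5 KOA, and 3 and 2 in 6419c5 KOB. The shares of all tested genes, higher and lower in that order, were 15.2% and 7.56%, 29.2% and 19.4%, 19.1% and 12.7%, and 28.5% and 14.7%, and most of the ETS counts were near them. Ehf, an epithelial ETS factor, rose from 3.85 ± 0.367 TPM in WT of 6694c2 to 18.02 ± 2.69 in KOA and 18.3 ± 3.98 in KOB (SD, n = 4; 1.97 in each, adjusted p of 5.74e-08 and 6.31e-09). Its 6419c5 means were 19.2 to 20.7 TPM in all 3 lines. Etv3 rose in 6694c2 KOB (0.28) and in both lines of 6419c5 (0.71 and 0.60), while Etv6 rose in 6694c2 KOA (0.46) and fell in both lines of 6419c5 (−0.57 and −0.58).

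The 16 genes of the cascade from RAS to ERK had 5 higher and 0 lower in 6694c2 KOA, 1 and 5 in 6694c2 KOB, 6 and 2 in 6419c5 KOA, and 8 and 1 in 6419c5 KOB. Beside them stand 15.2% higher and 7.56% lower of all tested genes in 6694c2 KOA, 29.2% and 19.4% in 6694c2 KOB, 19.1% and 12.7% in 6419c5 KOA, and 28.5% and 14.7% in 6419c5 KOB. Araf, which encodes a RAF kinase, and Shc1, an adaptor of receptor kinases, rose in both lines of 6419c5, Araf by 0.54 and 0.72 and Shc1 by 0.61 and 0.39. In 6694c2 Araf was called in KOA (0.17, adjusted p of 0.0396), and Shc1 was not called in either line. Of 3 other genes of a published score of MAPK pathway activity, Ccnd1, which encodes cyclin D1, rose in 6694c2 KOA (0.55 ± 0.13, 0.00498), with group means of 199.0 to 295.9 TPM. Epha2 fell in both lines of 6694c2 (−1.10 and −1.32), and Epha4 fell in both lines of 6419c5 (−1.29 and −1.75).

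**Figure D4:**
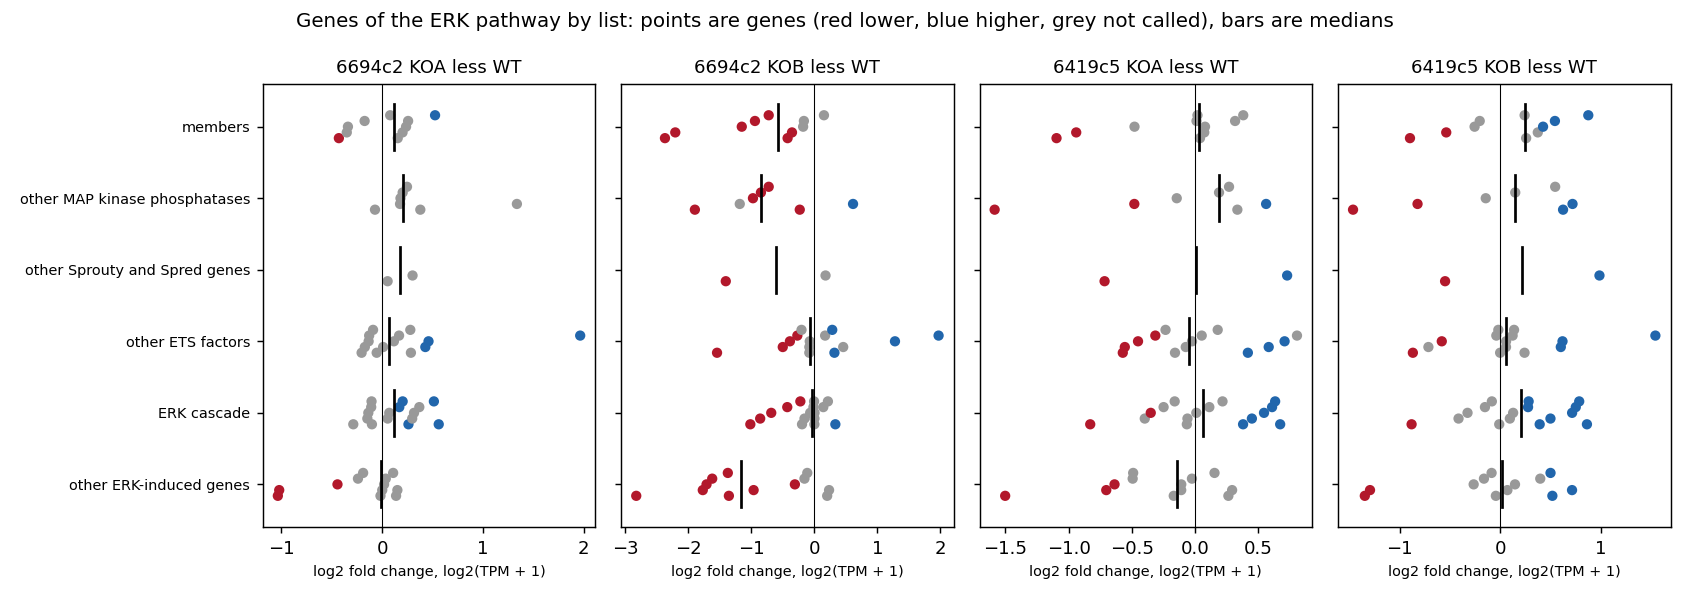
Log2 fold change in each knockout line against WT of its clone for the tested genes of 6 lists, with 1 point per gene (red called lower, blue called higher, grey not called) and a bar at the median of each list, on axes scaled for each panel. In 6694c2 KOB the medians of the 10 genes (−0.57), the other phosphatases (−0.85) and the other ERK-induced genes (−1.16) lie left of 0, and those of the other ETS factors and the cascade lie near 0.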

How the data were processed

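The authors deposited 1 table of gene-level TPM made with Salmon against mm10, per the submitters' processing notes. The Salmon version, annotation and step from transcripts to genes are not given in the sources used here. TPM records no read number, so depth is unknown and precision comes only from the spread between libraries. The 21 columns were assigned to the 6 groups by clone and line in their names.

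Values were analysed as log2(TPM + 1) with limma 3.58.1 and statmod 1.5.0, run in R 4.3.3. Figures and tables used Python 3.11.15, numpy 2.4.6, pandas 2.3.3 and matplotlib 3.10.9. The 14337 genes that reached 1 TPM in 3 or more libraries entered 1 limma model (lmFit, contrasts, eBayes with trend) with a mean for each group, 15 residual and 3.12 prior degrees of freedom. The test was two-sided, with Benjamini-Hochberg adjustment over all tested genes and calls made below 0.05. Fold changes carry limma's standard errors. A fold change on this scale understates the change of low genes. The scripts were tested on simulated data with known changes. Positions and promoters came from RefSeq for GRCm38, which is mm10.

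All 10 genes are named whatever their values. From each other pathway list the text names up to 3 tested genes with the smallest p in either averaged knockout effect, and from the 2 shortest lists every gene. A gene that this rule picks from the cascade list is not reported here. Genes of like pattern are the 8 with the highest smaller correlation. The 10 genes, the lists, the markers and the alternatives were chosen with earlier results of these data known. Alternatives were other scalings, pseudocounts and filters, no trend, pooled or random lines, a block of library numbers, each library left out, and settings without the 2 libraries of high Mir6236. Leaving out all of 6694c2 KOA was added after seeing the data.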

Additional observations from a re-analysis of the deposited data

Results flagged for a closer look

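Among 30 groups of 4 libraries (10 genes in the 3 lines of 6694c2), 3 had a library far from the other 3 by Dixon's criterion, which chance flags in about 1 in 20 groups. They were Dusp6 in WT library 3 (133 TPM, the lowest), Etv5 in KOB library 4 (18.8 TPM, the lowest) and Phlda1 in KOA library 2 (139 TPM, the lowest). KOB library 4 is a library of high Mir6236.

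The averaged knockout effect differed between the clones, by limma's test of the difference, for Dusp5 (−1.73), Dusp4 (−0.68), Spry4 (−0.61), Dusp6 (−0.51), Phlda1 (−0.48) and Etv5 (0.95, all 6694c2 less 6419c5 on the log2 scale). KO libraries of Spry4 lay below WT in 8 of 8 cases in 6694c2.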

How the results depend on the processing

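Of 100 changes (10 genes in 10 comparisons), 15 were under 0.1 on the log2 scale, were not called and changed sign under some setting, and 0 of the other 85 changed sign. Pseudocount 0.1, no filter, a filter at 5 TPM and limma without trend ended or added 0 calls. Genes called lower in the averaged effect of 6694c2 (4) numbered 7 with median-of-ratios size factors or quantile normalization, 2 with KO lines pooled and 0 with the line as a random effect (correlation within a line 0.546). In 6419c5 the 3 lower became 1 pooled, 0 with the random effect and 1 without the 2 libraries of high Mir6236. The 1 higher became 0 with the random effect and 3 with 6694c2 KOA left out whole. Leaving out 6694c2 KOA kept the 6419c5 estimates as they were and changed only the spread shared by all groups. For the difference between clones, the 5 lower became 7 with size factors (adding Spry2, −0.35, adjusted p 0.0427, and Etv4, −0.48, adjusted p 0.0244), 3 with quantile normalization, 1 pooled and 0 with the random effect, and the 1 higher became 0 with the random effect. The 1 lower in 6694c2 KOA became 2 with size factors, quantile normalization, TPM rescaled without Mir6236 or without the 2 libraries of high Mir6236, which also raised the 1 higher to 2 and took the 2 lower of 6419c5 KOB to 1. Size factors gave 1 gene lower in 6419c5 KOB than in KOA, where there had been 0. The cause was not tested.

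Leaving out 1 library in turn, counts ran from 3 to 7 lower for the 6694c2 average, 1 to 2 higher and 1 to 3 lower for the 6419c5 average, 0 to 2 higher and 1 to 2 lower for 6694c2 KOA, 6 to 7 lower for 6694c2 KOB, 0 to 1 higher and 2 to 3 lower for 6419c5 KOA, 2 to 4 higher and 1 to 2 lower for 6419c5 KOB, 6 to 7 lower and 1 to 3 higher for KOB against KOA in 6694c2 and 6419c5, 5 to 8 higher and 0 to 1 lower between WT lines, and 1 to 7 lower for the difference between clones. Departures from the group means had correlations of −0.168 to 0.462 between same-numbered libraries of different groups. Libraries of different numbers were not compared, so these values cannot show whether the numbers pair the samples. With the number as a replicate block 47 of 48 calls held, the difference of Phlda1 was lost (−0.48, adjusted p 0.0572) and Dusp4 in 6419c5 KOA was added (−0.48, adjusted p 0.0461). The other pathway genes were not refitted under other settings. Unknown depth limits what can be said of Spry3 and other low genes.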
